A study of Homo sapiens with 2 samples.

Results

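The p53 target genes described here are CDKN1A, MDM2, GADD45A, SESN1, SESN2, PHLDA3, ZMAT3, FDXR and PPM1D, whose probes were found through the RefSeq accession that the array design gives for each of them. The 9 genes had 12 probes, of which 11 were measured without fault, and all 9 entered the comparison, among 13812 measured genes of 19740 with a probe. RNA came from the human line RWPE-1, prostate epithelial cells that are not cancerous, grown in serum-free keratinocyte medium. One culture condition received pre-miR-424 at 30 nM, a precursor molecule from which cells make miR-424, and the other a negative control precursor. RNA of both conditions was hybridised together to 2 Agilent two-colour arrays, with pre-miR-424 RNA in Cy5 under normal labelling and in Cy3 on the dye swap. Because the labels call these arrays technical replicates, they counted as 1 replicate: differences are given as sizes for each array, and no p-value was computed. The labels do not say whether both arrays used the same RNA extracts and amplifications, so the spread between them covers at least labelling and hybridisation, and which further steps it covers is unknown.

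p53 is a transcription factor that is stabilised by DNA damage and other stress and then turns on genes that halt the cell cycle, repair DNA, adjust metabolism or trigger apoptosis. It also turns on its own inhibitors, so that the response limits itself. RWPE-1 cells were immortalised with a human papillomavirus, whose E6 protein promotes p53 degradation, and this limits the line as a model of p53 activity. The arrays measured mRNA, and neither p53 protein nor its activity was measured.

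As agents that could pair with target mRNAs, the mature strands of the transfected microRNA are shown from RefSeq (build GRCh38.p14), with the seed, bases 2 to 8, in capitals. The guide strand miR-424-5p, at chrX:134546680-134546701 on the minus strand, shares its seed with 6 other human microRNAs, of which miR-15a-5p, miR-16-5p and miR-195-5p are printed to show how far the likeness goes beyond the seed.
miR-424-5p: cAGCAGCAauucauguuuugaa
miR-15a-5p: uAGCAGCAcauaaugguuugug
miR-16-5p: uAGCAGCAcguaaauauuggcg
miR-195-5p: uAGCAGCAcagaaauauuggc
miR-424-3p: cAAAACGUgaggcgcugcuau
The opposite strand, miR-424-3p, has another seed. Sites for either seed in the transcripts of the 9 genes were not analysed here.

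The 9 genes did not move one way. With pre-miR-424, 4 of them were higher on both arrays (MDM2, GADD45A, ZMAT3 and PPM1D), 3 were lower on both (CDKN1A, SESN1 and PHLDA3), and SESN2 and FDXR had opposite signs on the arrays. Among all measured genes, 26.8% were higher on both arrays and 26.7% lower. No member differed by 1.5-fold on both arrays, a size reached by 0.623% of all genes in the direction of pre-miR-424 and by 0.391% in the direction of the control. The shares at 2-fold on both arrays were 0.0724% and 0.029%, and again no member was among them. The median log2 ratio of the members was 0.087, beside −0.0042 for all genes, and it was 0.10 on the normal array but −0.15 on the swap.

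To set these sizes against the error between arrays, the difference of the arrays divided by 2 was taken as the error of their mean, and its SD was computed for each gene over the 250 genes on either side of it in intensity, in a window shifted inwards at the extremes. This measure was chosen after the values were seen. By it, the mean ratio was over 2 times the error, with equal sign on both arrays, for MDM2 (higher) and PHLDA3 (lower). For MDM2 this held for the brightest probe, while its other measured probe had a smaller mean of 0.16. Of all genes, 5.68% were higher and 5.7% lower by the same criterion, and 1 of 9 members did so in each direction, a count too small to be read against these shares. The other 7 members lay within 2 times the error of their intensity.

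**Figure D1:**
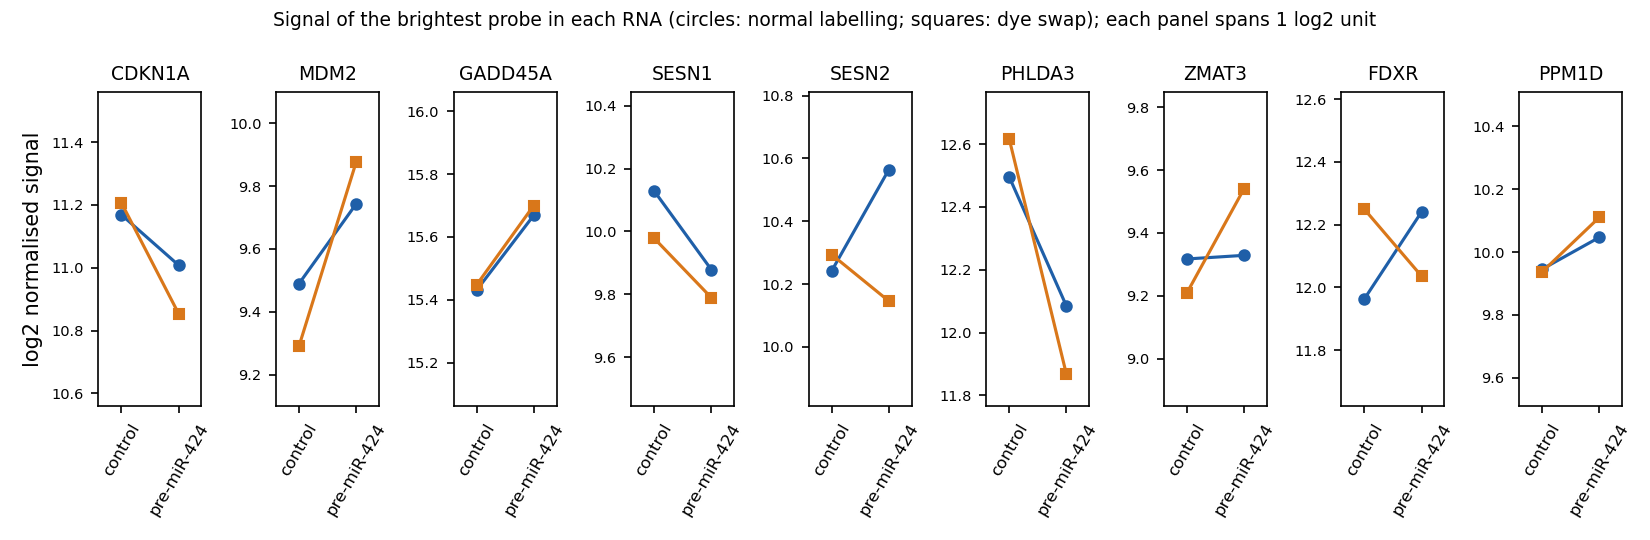
Normalised signal (log2) of the brightest probe of each gene in the control RNA and in the pre-miR-424 RNA, with lines joining the channels of one array; circles mark normal labelling, squares the dye swap, and every panel spans the same range. The lines of MDM2, GADD45A and PPM1D rise and those of CDKN1A, SESN1 and PHLDA3 fall on both arrays, the line of ZMAT3 is nearly level on the normal array, and the lines of SESN2 and FDXR cross.

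Among the inhibitors of p53 that p53 itself turns on, MDM2 was the member with the highest ratio. MDM2 encodes the ubiquitin ligase that marks p53 for degradation. The normalised signal of its brightest probe (NM_002392) was 857 with pre-miR-424 and 719 in the control on the normal array, and 940 and 626 on the swap. The pre-miR-424 signal was thus the higher on each array, as for 26.8% of all genes. The log2 ratio was 0.25 and 0.59, with a mean of 0.42 (SD 0.24, n = 2 arrays), or 1.34-fold, 2.73 times the error of genes of like intensity and at percentile 97.8 of all genes. Only the swap reached 1.5-fold. A dimmer second probe gave 0.029 and 0.29, with a mean of 0.16. The dimmest, printed as 10 spots, gave 0.13 and 0.28, and was left out of the comparison for 1 outlier spot on the swap. On that probe 8 of 10 spots were higher with pre-miR-424 on the normal array and 9 of 10 on the swap, which are repeat spots of one hybridisation and not replicates. All 3 probes therefore had the same direction, at sizes that differed.

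PPM1D encodes the phosphatase WIP1, which removes activating phosphates from p53 and its upstream kinases. The signal of its brightest probe (NM_003620) was 1058 with pre-miR-424 and 986 in the control on the normal array, and 1105 and 980 on the swap. The signal with pre-miR-424 was the higher on each array. The log2 ratio was 0.10 and 0.17 (mean 0.14, SD 0.051), less than the error of its intensity, 0.15. Its other probe pointed the other way, with −0.092 and −0.10, so PPM1D had no settled direction although each probe repeated closely between the arrays.

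Both growth arrest genes among the members differed in direction from each other. CDKN1A encodes p21, the inhibitor of cyclin-dependent kinases that carries out much of the p53 arrest. Its signal (NM_078467) was 2060 with pre-miR-424 and 2302 in the control on the normal array, and 1851 and 2364 on the swap. The pre-miR-424 signals were the lower on each array, as for 26.7% of all genes. The log2 ratio was −0.16 and −0.35, with a mean of −0.26 (SD 0.14), or 0.837-fold, at percentile 7.27 of all genes and 1.77 times the error of its intensity. GADD45A, a stress sensor that binds PCNA and CDK1 complexes, was measured at an intensity where the error was wider (0.23) than for the other members (0.14 to 0.15). Its signal (NM_001924) was 52087 with pre-miR-424 and 44136 in the control on the normal array, and 53222 and 44664 on the swap. The pre-miR-424 signals were the higher on each array. The ratios repeated closely, at 0.24 and 0.25 (mean 0.25, SD 0.0098, 1.19-fold), yet the mean was only 1.07 times the error of genes of like intensity. The scanner software marked 0 of 62976 spots as saturated in either channel of either array.

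The sestrins and ferredoxin reductase link p53 to redox balance and metabolism. SESN1 is a sestrin that restrains mTORC1 signalling. Its signal (NM_014454) was 941 with pre-miR-424 and 1120 in the control on the normal array, and 885 and 1009 on the swap. Its log2 ratio was −0.25 and −0.19 (mean −0.22, SD 0.043), or 0.859-fold and 1.44 times the error. SESN2, the related sestrin that also responds to amino acid shortage, did not show this difference. Its signal (NM_031459) was 1514 and 1211 on the normal array, but 1133 and 1255 on the swap, each time with pre-miR-424 first. The ratios of 0.32 and −0.15 gave a mean of 0.087 (SD 0.33), smaller than the spread between the arrays. FDXR, the mitochondrial reductase that passes electrons to ferredoxins, behaved in the same manner. Its signal (NM_004110) was 4840 and 3994 on the normal array and 4200 and 4868 on the swap, again with pre-miR-424 first. With ratios of 0.28 and −0.21 (mean 0.032, SD 0.35), FDXR, like SESN2, was brighter in Cy5 on both arrays whichever RNA carried it, so that no direction can be given for either gene.

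PHLDA3, a repressor of AKT that competes for membrane lipids, had the lowest ratio of all members. The signal of its single probe (NM_012396) was 4343 with pre-miR-424 and 5776 in the control on the normal array, and 3736 and 6280 on the swap. The pre-miR-424 signal was the lower on each array. The log2 ratio was −0.41 and −0.75, with a mean of −0.58 (SD 0.24), or 0.669-fold. It ranked 121 from the lowest among 13812 genes and was 4.03 times the error of its intensity. ZMAT3 encodes an RNA-binding zinc finger protein that acts on the splicing and stability of mRNAs. Its probe (NM_022470), printed as 10 spots, had signals of 643 with pre-miR-424 and 638 in the control on the normal array, and 745 and 592 on the swap. On the normal array the 10 spots ran from −0.096 to 0.12 on the log2 scale and 6 of them were higher with pre-miR-424. On the swap all 10 were higher, from 0.17 to 0.57. The mean ratio of 0.17 (0.012 and 0.33, SD 0.23) was thus carried by the swap, and was 1.15 times the error.

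**Figure D2:**
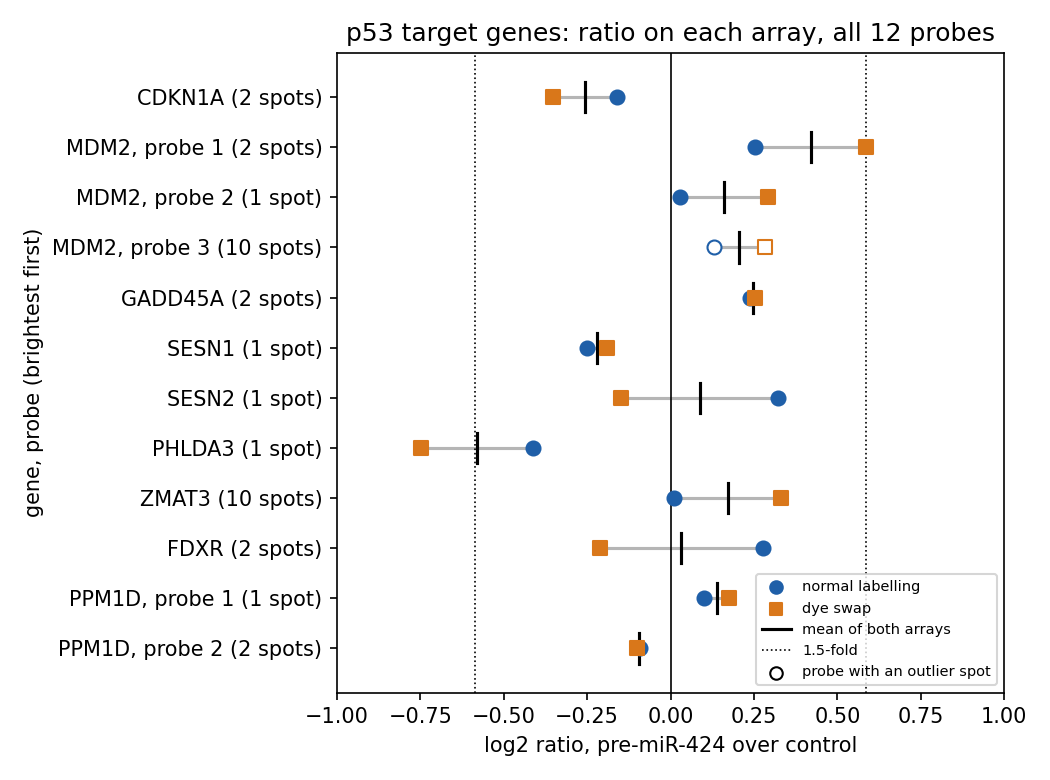
Log2 ratio of pre-miR-424 over control for each of the 12 probes of the 9 genes, with circles for normal labelling, squares for the dye swap, black bars for the mean of both arrays and dotted lines at 1.5-fold; open symbols mark the MDM2 probe with an outlier spot. PHLDA3 lies farthest to the left (−0.41 and −0.75), the 3 MDM2 probes lie to the right of 0 on both arrays, and the PPM1D probes lie on either side of 0.

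**Figure D3:**
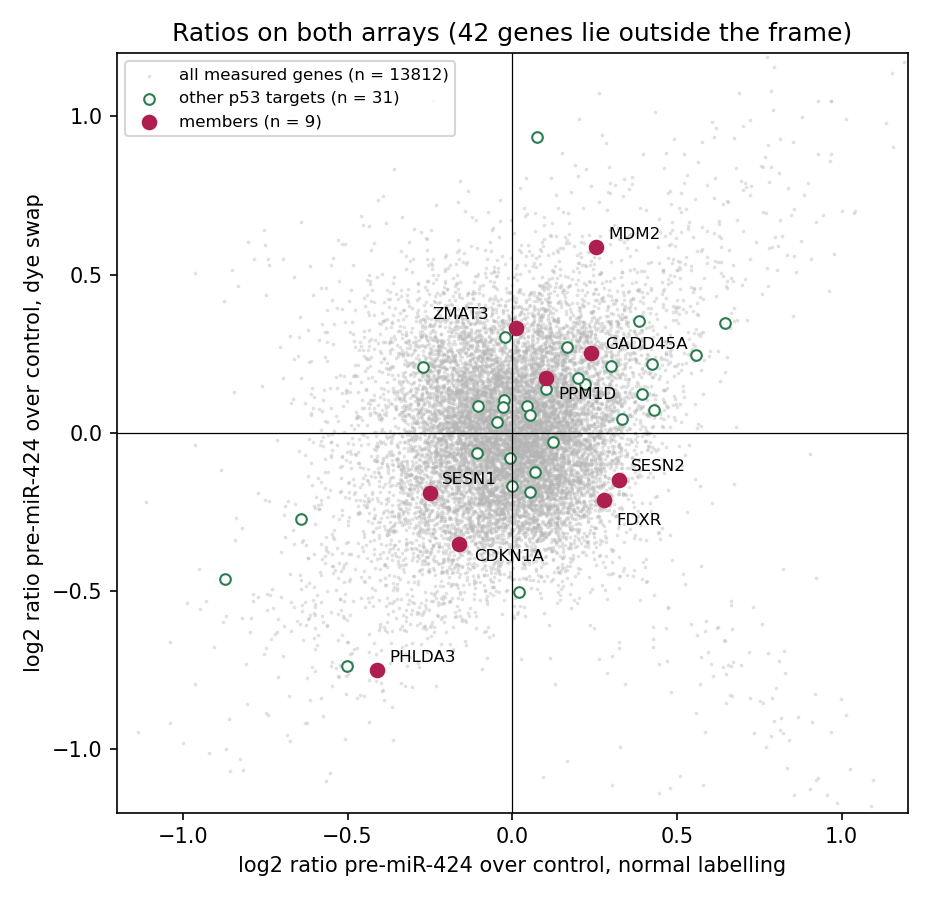
Log2 ratio of pre-miR-424 over control on the normal array (horizontal axis) against the dye swap (vertical axis) for all 13812 measured genes (grey), 31 other p53 targets (open green circles) and the 9 members (filled, named). MDM2 (0.25, 0.59) and PHLDA3 (−0.41, −0.75) lie in opposite directions from the centre, with means at percentiles 97.8 and 0.87 of all genes. Outside the frame lie 42 genes.

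The ratios of all genes were close to the error, with an SD of 0.20 for the mean of both arrays, an SD of 0.16 for the difference divided by 2, and opposite signs on the arrays for 46.5% of the genes. Between the 5th and the 95th percentile of all genes, from −0.30 to 0.30, lay 7 members, and MDM2 and PHLDA3 lay outside. The markers of the labelled cell type were present: 5 of 5 basal markers and 4 of 4 epithelial markers were above background. Of the stromal markers 4 of 5 were above background (PDGFRB was not), and of the leukocyte and endothelial markers 2 of 5, CD68 and, by 1 of its 4 probes, the general leukocyte marker PTPRC (mean −0.065), while the T cell marker CD3E and the endothelial markers PECAM1 and VWF were not. ITGB4 was the basal marker with equal sign on both arrays (mean −0.062), and the others disagreed. VIM was lower on both arrays (mean −0.29, less than its error of 0.37) and ACTA2 was higher (0.20, 1.41 times its error). CD68 was also lower on both (−0.30, 2.03 times its error). Their part in the ratios of the p53 targets was not tested.

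To see whether other p53 targets moved with the members, 32 further targets were taken from general knowledge, of which 31 were measured and CYFIP2 had no probe. Of the 31, 15 were higher on both arrays (26.8% of all genes were), 6 were lower (26.7%) and 10 had opposite signs, with a median log2 ratio of 0.056 and a range of −0.67 to 0.50. None reached 1.5-fold on both arrays. Over 2 times the error of their intensity were 5 that were higher, beside 5.68% of all genes, and 3 that were lower, beside 5.7%. More of these targets were thus higher than lower, and their median of 0.056 compares with −0.0042 for all genes. Because the list was written with earlier results of these data known, this only describes the list. The shares were not tested.

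The apoptosis genes held the highest of these ratios. Of 10 measured, 6 were higher on both arrays, 2 were lower and 2 disagreed, with a median of 0.25. Over 2 times the error were 4 that were higher and 1 that was lower, beside the 5.68% and 5.7% of all genes, while 26.8% of all genes were higher on both arrays. PMAIP1, which encodes the BH3-only protein NOXA, had a mean of 0.50, but 0.074 on the normal array against 0.93 on the swap. PERP, a membrane protein of desmosomes and a p53 effector in apoptosis, was lower, with −0.87 and −0.46 (mean −0.67). Chosen after their values were seen, BBC3, which encodes the BH3-only protein PUMA, gave 0.64 and 0.35, and the death receptor TNFRSF10B gave 0.39 and 0.35, a ratio that differed little between the arrays.

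Growth arrest genes other than CDKN1A and GADD45A were also divided. Of 6 measured, 2 were higher on both arrays and 3 were lower, beside 26.8% and 26.7% of all genes. Their median of −0.14 rested on the swap (−0.18, against 0.0056 with normal labelling). Of the 6 genes, 2 that were lower exceeded 2 times the error, beside 5.7% of all genes. BTG2, an antiproliferative gene that promotes mRNA deadenylation, was lower, with −0.50 and −0.74 (mean −0.62), close to the ratios of PHLDA3. SERTAD1, a regulator of CDK4, was higher by 0.39 and 0.12 (mean 0.26). CCNG1, the cyclin G1 gene, was picked after its values were seen and gave −0.64 and −0.27. Of the 4 DNA repair targets, POLH, a translesion polymerase, had the same sign on both arrays by its brightest probe (mean 0.22). Its other probe gave −0.32 and 0.10. The other 3 genes disagreed between the arrays, as did 46.5% of all genes.

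Of 3 metabolic targets, SCO2 and GLS2 were higher on both arrays, with means of 0.19 and 0.065, both within 2 times the error. SCO2 serves the assembly of cytochrome c oxidase and GLS2 is a glutaminase. Among 8 secreted and membrane products, 4 were higher on both arrays, 1 was lower and 3 had opposite signs. For this list and the metabolic one, the shares of all genes were 26.8% higher and 26.7% lower. GDF15, a secreted stress cytokine, was the highest of them with 0.56 and 0.25 (mean 0.40). It was over 2 times the error, as were 5.68% of all genes in that direction. SUSD6 was lower with a mean of −0.085, within the error.

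**Figure D4:**
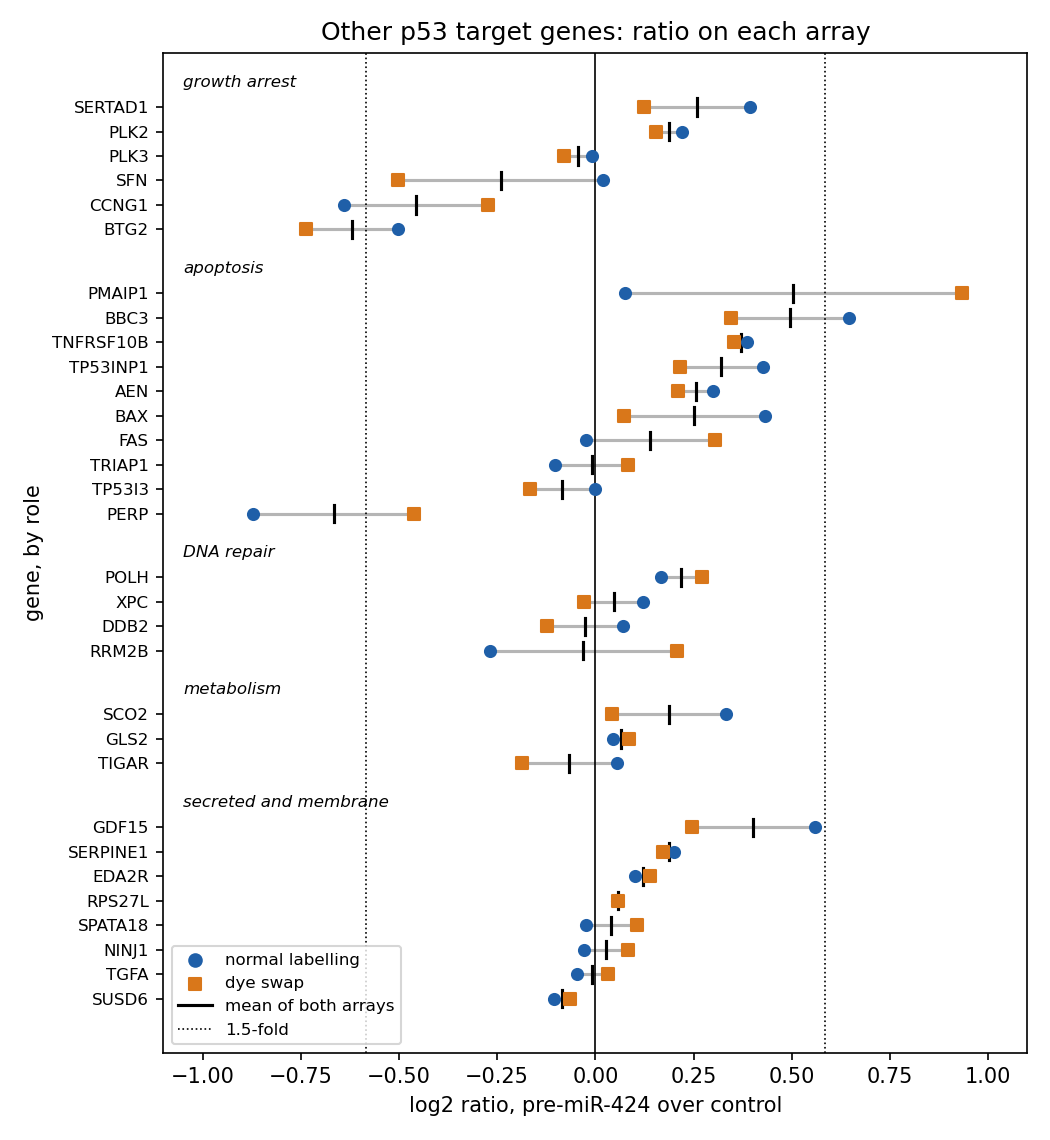
Log2 ratio of pre-miR-424 over control of 31 other p53 target genes grouped by role, with circles for normal labelling, squares for the dye swap, black bars for the mean and dotted lines at 1.5-fold. Apoptosis genes run from PERP (mean −0.67) to PMAIP1 (mean 0.50), and no gene lies beyond 1.5-fold on both arrays.

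Genes that act upstream of p53 or beside MDM2 formed a further list. Of 11 p53 regulators 1 was higher on both arrays, 5 were lower and 5 disagreed, beside 26.8%, 26.7% and 46.5% of all genes. Their median of −0.064 differed in sign between the arrays (−0.18 and 0.046). Of the 11 genes, 2 that were lower were over 2 times the error, beside 5.7% of all genes. COP1, a ubiquitin ligase that can mark p53 for degradation, was the lowest with −0.52 and −0.44 (mean −0.48, SD 0.059), the opposite direction to MDM2. CHEK2, a checkpoint kinase that phosphorylates p53, gave a mean of 0.029, well within its error of 0.15; its other probe gave −0.078 and 0.30, and with median centring the mean turned to −0.026, so it had no settled direction. UBE3A, the ligase that the papillomavirus E6 protein uses against p53, was picked after its values were seen and gave −0.36 and −0.12 (mean −0.24), within 2 times the error.

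Relatives of the members served to see whether a difference was shared within a gene family. Of 10 relatives, 4 were higher on both arrays, 1 was lower and 5 disagreed, with a median of 0.068. The shares of all genes were 26.8%, 26.7% and 46.5%. GADD45B, the paralogue of GADD45A, was higher by 0.22 and 0.47 (mean 0.35), over 2 times the error, as were 5.68% of all genes in that direction. CDKN1C, which encodes p57, a kinase inhibitor related to p21, was lower, with a mean of −0.20, like CDKN1A, and within 2 times the error as CDKN1A was. Other relatives were chosen after their values were seen. PHLDA1 gave 0.077 and 0.31 where PHLDA3 was lower. CDKN1B by its brightest probe (−0.13 and 0.35) and SESN3 (0.042 and −0.031) had opposite signs on the arrays. The other probe of CDKN1B gave −0.0021 and −0.26, nearly level on the normal array and lower on the swap.

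Because p21 acts through the DREAM complex to lower cell cycle genes, 15 such genes were examined, of which 14 were measured. Of these, 4 were higher on both arrays, 6 were lower and 4 disagreed, beside 26.8%, 26.7% and 46.5% of all genes. The median of −0.026 lay near that of all genes. PLK1, a mitotic kinase, was lower, with −0.38 and −0.57 (mean −0.47), while AURKA, another mitotic kinase, was higher by 0.14 and 0.42 (mean 0.28). Over 2 times the error of their intensity were 1 that was higher (AURKA) and 2 that were lower (PLK1 and FOXM1). The shares of all genes were 5.68% and 5.7%. FOXM1, picked after its values were seen, gave −0.21 and −0.54 (mean −0.37).

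p53 binds DNA at pairs of a 10-base element. RefSeq windows from 250 bases before to 50 bases after the start site (build GRCh38.p14) were available for 7 of the 9 genes and searched for the consensus of this p53 element, whose reverse complement is itself, in a search added after the ratios were known. SESN1 and FDXR held 1 match each. They are shown as the members with such letters near a start site, with the match in capitals.
SESN1: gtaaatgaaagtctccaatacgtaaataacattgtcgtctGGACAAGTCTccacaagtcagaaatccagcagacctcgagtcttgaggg
FDXR: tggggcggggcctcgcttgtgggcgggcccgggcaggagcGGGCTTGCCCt
The SESN1 stretch is chr6:109008989-109009077 and the FDXR stretch is chr17:74872995-74873045, both on the minus strand. The matches lie from −49 to −40 and from −11 to −2 relative to the start site. Of all 27305 genes with a window, 8.06% held the element. A full site, with up to 13 bases between elements, was found in none of the 7 members and in 0.0366% of all genes. Sequence outside this short window was not searched, so the search cannot show whether the members hold a p53 site elsewhere. SESN1 was lower on both arrays and FDXR had no settled direction, so the members with a match did not share a pattern.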

How the data were processed

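RNA of RWPE-1 cells with pre-miR-424 or control was amplified and hybridised to 2 Agilent arrays, a normal labelling and a dye swap. Per the file headers, the deposited scanner files hold median spot intensity and local background per channel from Feature Extraction 10.7.3.1, not normalized, and the software's log10 ratio. The authors also deposited log2 ratios, made with limma per the labels. Set against the values computed here these were ratios of Cy5 to Cy3 that kept the dye's direction on both arrays, with correlations of 0.991 and 0.988 and column medians of 0.0236 and 0.0355, and their steps are not given in the sources used here. Columns of both arrays were all mapped.

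Background correction of the median intensities used the normexp method of limma 3.58.1 under R 4.3.3 (offset 50), which draws ratios of dim probes towards 0, and loess followed within each array. Aquantile scaling was used only for the signals printed. Median signals were 165 to 189 in Cy3 and 290 to 314 in Cy5, over backgrounds of 28 to 29 and 69 to 70. Both arrays lay on 1 slide and were scanned together. Control spots were left out and spots of a probe averaged. Ratios were turned to pre-miR-424 over control. A probe counted as measured if both its channels were marked well above background on each array and no spot was an outlier, which held for 25664 of 42405 probes. A RefSeq accession was given for 27134 probes, and 25771 of these (95.0%) had a symbol when compared without versions (GRCh38.p14 table, names only). The brightest measured probe represented a gene.

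Named were all members with every probe and, per list, the highest and the lowest mean among genes of equal sign and any gene at 1.5-fold on both arrays; other genes are marked as chosen after their values were seen. The list of luminal prostate markers is not reported here. Members and lists were chosen with earlier results of these data known. Alternatives covered the offset, background, centring, the software's and the authors' ratios, dim and outlier filters, mean over probes, thresholds and each array alone. The steps were tested on simulated data. Python 3.11.15, pandas 2.3.3, numpy 2.4.6 and matplotlib 3.10.9 were used.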

Additional observations from a re-analysis of the deposited data

How the results depend on the processing

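The number of members lower on both arrays was 3 to 5, and that higher 4 to 6, when a single array was used; the median of the members then ran from −0.15 to 0.10 and the number at 1.5-fold from 0 to 2, where the swap alone gave 2, MDM2 and PHLDA3. With median centring in place of loess, 2 members were higher on both arrays, since GADD45A (0.74 and −0.33) and PPM1D (0.22 and −0.054) then changed sign between the arrays. Median centring left the medians of all genes at 0.13 and −0.23. Relative to these, PPM1D (0.087 and 0.17) was higher on both, whereas GADD45A (0.61 and −0.10) and ZMAT3 (−0.020 and 0.35) were not. The mean of PPM1D fell to 0.021 when its probes were averaged. That of MDM2 then fell to 0.29, inside the range of −0.30 to 0.30 given above for all genes. With the added threshold of 2 times the error in place of 1.5-fold, 2 members passed. With a 1.5-fold threshold on the mean, 0 members passed, PHLDA3 lying just below it. In the 9 alternatives that kept both arrays, the mean ran from −0.64 to −0.58 for PHLDA3, from 0.29 to 0.45 for MDM2, from −0.32 to −0.26 for CDKN1A and from −0.27 to −0.18 for SESN1. SESN2 changed the sign of its mean on the swap alone, and FDXR there and with median centring (−0.030); the other 7 members kept theirs in all 11 alternatives of processing and arrays. The cause of these changes was not tested. With 1 replicate, biological spread is unknown, and ratios within about 2 times the error (0.14 to 0.23 for the members) cannot be told from the error between arrays. No paired analysis was possible because the arrays are 1 comparison.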

Other observations

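The probes of the kinase gene ATM, which acts upstream of p53, disagreed more than those of any member. Its brightest probe gave −0.097 and 0.11, while a probe printed as 10 spots, left out for an outlier spot on the normal array, gave −1.34 and −0.94. The pair was singled out after the values were seen.

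Of 27 other p53 targets with a RefSeq promoter window, 5 held the p53 element and 1 a full site, beside 8.06% and 0.0366% of all genes with a window.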
